A study of Mus musculus with 6 samples.

Results

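The cytosolic ribosomal protein genes, which encode the protein components of the ribosomes of the cytoplasm, were examined in the retina of 5XFAD mice. They were taken by gene symbol, namely symbols starting with Rpl, Rps or Rplp followed by a number. The rule found 82 genes among the 19401 rows listed in at least 1 library, of which 51 encode proteins of the large subunit and 31 of the small subunit. In the same files, 81 of the 82 were listed in all 6 libraries, and 80 had at least 10 counts in at least 3 libraries and were tested. The other two, Rpl3l and Rpl32l, were too low to be tested.

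The libraries were 3 of control 5XFAD mice and 3 of 5XFAD mice that received efavirenz (EFV), an inhibitor of the HIV reverse transcriptase that at a low dose activates the cholesterol-metabolizing enzyme CYP46A1. 5XFAD mice, a model of Alzheimer's disease, are hemizygous for transgenes under the neuronal Thy1 promoter, and both groups carried them, so there was no group without the transgenes. EFV was given in drinking water from 3 to 9 months of age, at 0.08 mg/kg of body weight per the labels (the methods of the study give a slightly higher dose), and the control mice got the vehicle, Tween 80. Each library was a pool of one retina plus retinal pigment epithelium (RPE) from 5 to 6 mice, which the study describes as male, collected at 9 months of age. The values of a library are therefore an average over several animals, and in pooled bulk tissue fewer cells of a type and less RNA per cell cannot be told apart.

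A ribosome consists of a large and a small subunit, and nearly every ribosomal protein is present in 1 copy per subunit, the acidic stalk proteins P1 and P2 being the exception. Their mRNAs are among the most abundant of most cells. Many of the mRNAs start with a C followed by a run of pyrimidines, the 5′ terminal oligopyrimidine (TOP) motif, through which the mTOR pathway controls their translation. The genes have many processed copies in the mammalian genome, most of them pseudogenes.

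The libraries held from 23455167 to 24590278 expected counts, and the 82 ribosomal protein genes took 1.06% to 1.17% of them. Rod markers, 8 of 8 of them listed, summed to 24380 to 26180 FPKM (the authors' measure of fragments, scaled for transcript length and for library size), so the photoreceptors of the labelled tissue were present. Lens markers summed to 565 FPKM in control replicate 3 and to 6.25 to 21.3 FPKM in the other 5 libraries, with Grifin listed at 0 in EFV replicate 2. RPE markers, 10 of 10 listed, summed to 236 FPKM in control replicate 2 and to 267 to 284 FPKM in the other 5 libraries.

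The ribosomal protein genes stood high but far from level with each other. Over the 81 genes listed in all libraries, the mean FPKM had a median of 188.5, with quartiles at 134.8 and 268.6, and the median over all 16726 rows listed in all libraries was 6.55. Of the 81, 66 were at 100 FPKM or more, as were 499 of the 16726 rows. The median was 187.5 FPKM for the large subunit (50 genes) and 204.0 FPKM for the small subunit (31 genes). FPKM divides by the length of the gene model, and the lengths in the files ranged from 370 to 5169 bases, with a median of 703 bases.

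**Figure D1:**
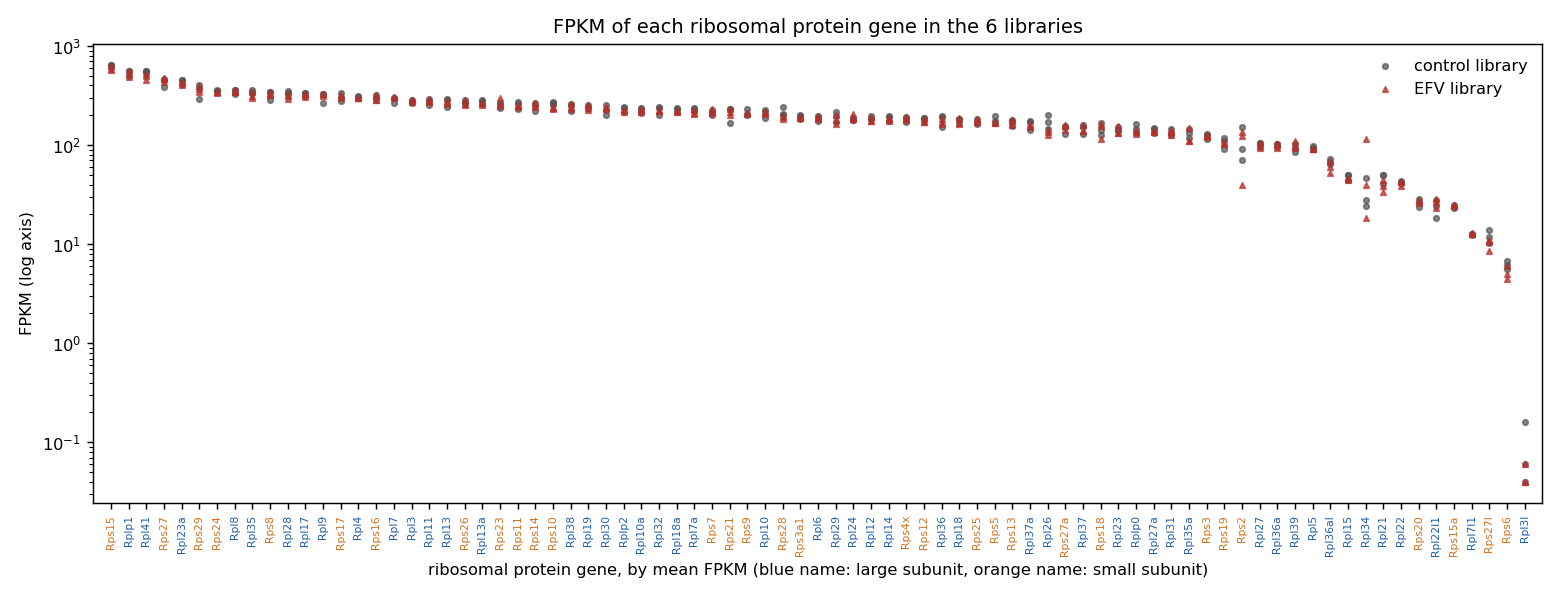
FPKM (y axis, log scale) of the 81 ribosomal protein genes listed in all 6 libraries, ordered by mean FPKM along the x axis; each point is 1 library, grey circles control and red triangles EFV. Most genes lie in a band near the median of 188.5 FPKM, and the tail on the right includes the paralogs, genes with long models, Rps6 and Rpl34.

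The 6 genes at the top were Rps15, Rplp1, Rpl41, Rps27, Rpl23a and Rps29. Rps15, a protein of the head of the small subunit, was at 636 ± 13.8 FPKM in control and 599.9 ± 29.0 in EFV-treated mice (SD, n = 3 each). Rplp1, an acidic protein of the stalk that recruits translation factors, was at 542 ± 33.6 and 521 ± 34.1 FPKM. Rpl41, the smallest ribosomal protein, was at 553 ± 14.1 and 489.8 ± 28.7 FPKM. The control levels of Rplp1 and Rpl41 lay within their spread of each other. Rps27, Rpl23a and Rps29 followed at means over the 6 libraries of 445, 429.6 and 362 FPKM.

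The genes at the bottom were of 3 kinds. The first was Rpl3l, the muscle paralog of Rpl3, with 1 to 4 counts per library and 0.04 to 0.16 FPKM. The second were Rps27l and Rpl7l1, paralogs with means of 10.99 and 12.7 FPKM. The third was Rps6, the small-subunit protein phosphorylated by S6 kinase, at 6.19 ± 0.551 FPKM in control and 5.13 ± 0.790 in EFV-treated mice. For Rps6 most reads of the protein were listed in another row, as described further on. Rps15a and Rps20 were at 24.3 and 26.7 FPKM over models of 5169 and 3446 bases, the longest pair of the 82.

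Paralogs, second genes for a like protein that are often used in some tissues only, were set against their parents. Rpl22l1 was at 56.3% ± 10.1 of the FPKM of Rpl22 in control and 63.6% ± 3.93 in EFV-treated mice. Rpl36al was at 67.5% ± 6.96 and 61.8% ± 11.5 of Rpl36a. Rps27l was at 2.79% ± 0.691 and 2.21% ± 0.344 of Rps27, and Rpl7l1 at 4.40% ± 0.178 and 4.24% ± 0.0186 of Rpl7. In each of these pairs the difference between the group means was no larger than the SD of control, and the 4 tested paralogs each had an adjusted p of at least 0.999 by edgeR. Rpl7l1 had the smallest within-group spread of the 80 genes, at 32.6, 32.0 and 32.5 CPM (counts per 1000000 counts, after scaling between libraries) in control and 32.8, 32.7 and 32.2 in EFV-treated libraries. Rpl10l, Rpl39l and Rps4l were not listed under these symbols in any of the libraries, so they have no values here.

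The first comparison asked whether EFV treatment altered the mRNA of ribosomal proteins in the 5XFAD retina. With the quasi-likelihood test of edgeR and Benjamini-Hochberg adjustment over all 15537 genes tested, 0 of 80 had an adjusted p of 0.05 or less (0.0% of all genes tested), and the smallest adjusted p of the 80 was 0.999. DESeq2 and limma also called 0 of the 80. The smallest adjusted p of the 80 by DESeq2 was 0.086, and DESeq2 called 11 of all 15537 genes. A Poisson model, with no term for variation among pools, called 37 of the 80, against 2043 of all 15537 genes. At an unadjusted p of 0.05 or less there were 8, and these 8 also passed the fold limit of the study. All 8 were lower in EFV-treated mice, against 239 of 15537 genes overall (1.54%), and 0 of 80 were higher, against 228 (1.47%). The 8 are Rps10, Rpl41, Rpl26, Rpl28, Rps28, Rpl21, Rpl35 and Rpl7a, and all are among the 11 that the study listed as changed in these same libraries, so the list is no independent evidence of direction.

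The log2 fold changes leaned the same way. They were below 0 in 62 of the 80 genes (77.5%) against 7684 of 15537 genes (49.46%), with a median of -0.05 for the ribosomal protein genes and of 0.00 for all genes. The median was -0.06 for the 49 tested genes of the large subunit and -0.03 for the 31 of the small subunit, where 40 and 22 were below 0. Without the 11 genes of the study's list, 51 of 69 were below 0, with a median of -0.04. These are shifts of a few percent, and the median standard error of a single gene was 0.06. All 3 EFV libraries were below all 3 control libraries in 12 of 80 genes, against 4.18% of all genes tested, and all 3 were above in 1 of 80, Rpl7, against 3.95%. Of the 12, 8 were on the study's list, which was chosen on these same libraries. Outside that list, 4 of 69 had all 3 EFV libraries below control, and 0 of 69 were past the limits. The list was chosen with like limits on these libraries. The count of 0 was thus largely fixed in advance and says little about the 69. In a further fit, a trend with gene length was removed from each library's log2 CPM, taken as deviations from the gene means. After this, 49 of 80 were below 0 (50.15% of all genes) and the median was -0.02 (-0.0004 for all genes). Past the limits in the lower direction were 6 of 80, against 240 of 15537 genes. Of the 80, 1 gene had groups that did not overlap (7.9% of all genes). Ribosomal protein models are short, with a median length of 703 bases against 2983 bases over all rows listed in all libraries. The part of gene length in the lower values was not tested. With CPM scaled by total counts alone, 55 of 80 were below 0 (41.64% of all genes) and 7 had groups that did not overlap (7.93% of all genes), as did 7 on the log2 FPKM scale of limma (7.67%), shares near those of all genes. With total counts the median was -0.03, against 0.02 for all genes, and 6 of 80 were past the limits in the lower direction (159 of 15537 genes). With limma on log2(FPKM + 0.1) the number past them was also 6, against 192 of all genes.

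**Figure D2:**
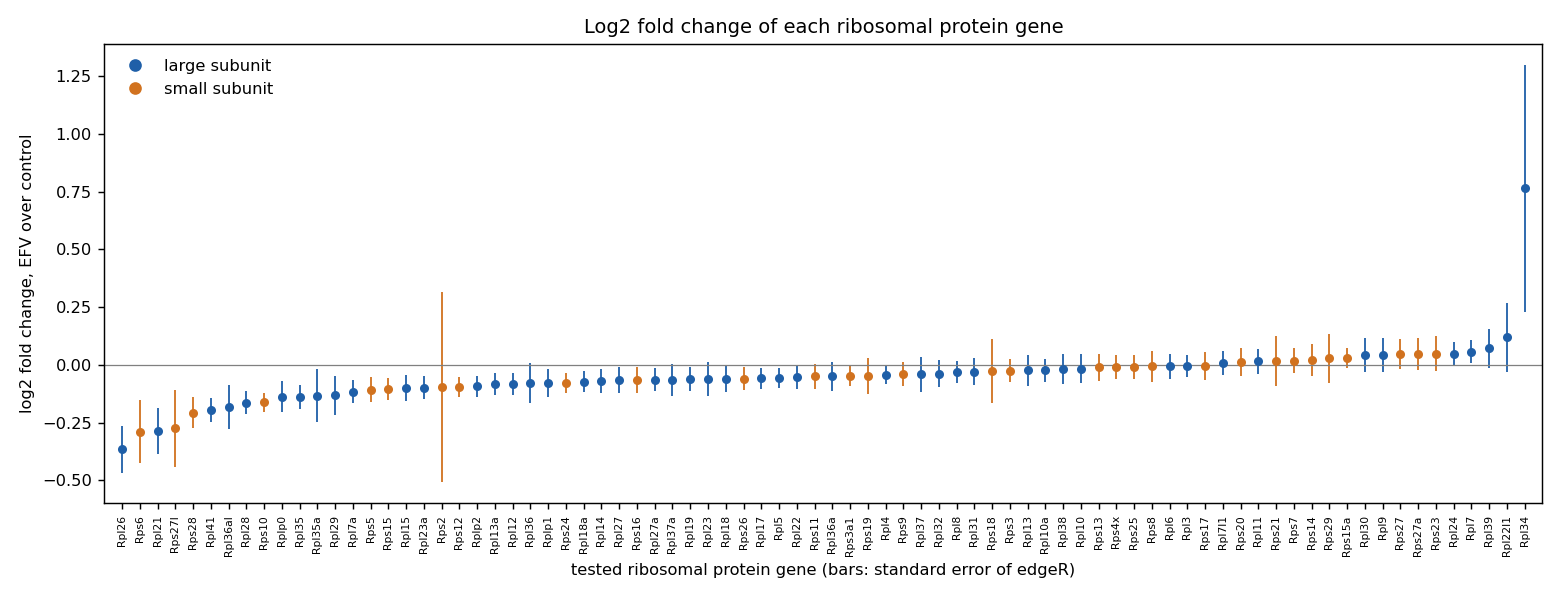
Log2 fold change of EFV over control for the 80 tested ribosomal protein genes (y axis), ordered along the x axis, with bars for the standard error of edgeR; blue is the large subunit and orange the small. Most points lie a little under 0, 62 of 80, and the longest bars are those of Rpl34 at the right end and of Rps2.

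Rps10, a small-subunit protein whose gene is mutated in some patients with Diamond-Blackfan anaemia, a failure of red cell production, had the smallest p. Its CPM was 139, 131 and 137 in control and 124, 119 and 121 in EFV-treated libraries. All 3 EFV libraries were below all control libraries. The log2 fold change was -0.16 (SE 0.04, adjusted p = 0.999 by edgeR).

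Rpl41 was at 222, 218 and 227 CPM in control and 182.5, 197 and 203.5 in EFV-treated libraries. The groups did not overlap, with a log2 fold change of -0.20 (SE 0.05). Rpl28 was at 148, 156 and 144 CPM in control and 135, 128 and 137 in EFV-treated libraries, again without overlap. Its log2 fold change was -0.16 (SE 0.05).

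Rps28 was at 82.0, 70.5 and 68.3 CPM in control and 62.1, 65.9 and 63.4 in EFV-treated libraries, with control replicate 1 well above the rest. Its log2 fold change was -0.21 (SE 0.07). Rpl35, which lies near the exit of the peptide tunnel, was at 141, 134 and 135 CPM in control and 118, 121 and 133 in EFV-treated libraries. EFV replicate 3 was just under the lowest control library. Rpl7a, with 20 near copies in the genome, was at 189, 181 and 186 CPM in control and 164, 169.7 and 179 in EFV-treated libraries, and its log2 fold change was -0.12 (SE 0.05).

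Rpl26, a protein at the tunnel exit that also binds the p53 mRNA, had the largest log2 fold change of the 8, at -0.37 (SE 0.10). Its CPM was 85.8, 73.9 and 102 in control and 63.5, 69.1 and 70.3 in EFV-treated libraries, and control replicate 3 was the highest. Rpl21 was at 92.3, 77.5 and 94.6 CPM in control and 82.0, 63.4 and 71.7 in EFV-treated libraries, so EFV replicate 1 was above control replicate 2. Both proteins also had many reads in other rows, which are described further on. Leaving out each library in turn, Rps10, Rpl41, Rpl28, Rpl26 and Rps28 were past the limits in 6 of 6 fits. Rpl21 was not past them without control replicate 1, control replicate 3 or EFV replicate 2, and Rpl35 without control replicate 1, EFV replicate 1 or EFV replicate 2. Rpl7a was past them in 2 of 6 fits, those without control replicate 2 or EFV replicate 3.

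The remaining 3 genes of the study's list were not past the limits here. Rps15 had a log2 fold change of -0.11 (SE 0.05), with groups that did not overlap. Rplp0, the scaffold of the stalk, had a log2 fold change of -0.14 (SE 0.07) and Rpl23a, where the signal recognition particle docks, of -0.10 (SE 0.05), both with groups that overlapped.

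The stalk, which recruits elongation factors, leaned the same way without passing a limit. All 4 of its genes had log2 fold changes below 0, namely Rplp0 as given above, Rplp1 (-0.08, SE 0.06), Rplp2 (-0.09, SE 0.05) and Rpl12 (-0.08, SE 0.05), and 0 of 4 were past the limits. Over all genes, 49.46% were below 0 and 1.54% were past the limits in the lower direction. Of the 19 genes mutated in Diamond-Blackfan anaemia, 14 were below 0 (73.7%, against 77.5% of the 80 ribosomal protein genes and 49.46% of all genes) and 4 were past the limits in the lower direction, against 8 of the 80 and 1.54% of all genes. In a short list of 4 genes whose proteins bind Mdm2 and so stabilize p53, 3 were below 0, against 77.5% of the 80 and 49.46% of all genes. The list does not hold every such gene. Of the 4, Rpl26 was past the limits, against 8 of the 80, and it no longer was once rows of the same protein were summed. Among the genes above 0, Rpl7 had the smallest p after Rpl34, with CPM of 260.5, 240 and 262 in control and 266, 265 and 262.5 in EFV-treated libraries. Its groups did not overlap, but the difference was 0.06 (SE 0.05) on the log2 scale. Rpl24, Rpl39, Rpl22l1, Rps27, Rps27a, Rps15a, Rps23 and Rpl30 followed, with log2 fold changes from 0.03 to 0.12, all with groups that overlapped.

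Ribosomal proteins that the symbol rule leaves out were examined in the same fit. Rpsa, which also serves as a laminin receptor, had a log2 fold change of -0.01 (SE 0.05), and Rack1, a signalling scaffold on the small subunit, of 0.00 (SE 0.05). Fau, which is made as a fusion with a ubiquitin-like protein, had a log2 fold change of -0.12 (SE 0.06). The values of Rpsa and Rack1 changed sign with the scaling.

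Genes of neighbouring functions were counted in the same fit. Over all genes tested, 49.46% were below 0, 1.54% were past the limits in the lower direction and 1.47% in the higher. Beside these shares, 1 gene past the limits in a list is no result about that list. Of the 78 tested mitochondrial ribosomal protein genes, which encode the ribosomes of mitochondria, 50 were below 0, with a median of -0.03; 0 were past the limits in the lower direction and 1, Mrps10, in the higher. Of the 54 tested translation initiation factors, 27 were below 0, with a median of 0.00. Of the 18 tested genes of the list of other TOP mRNAs, such as Eef1a1 and Tpt1, 12 were below 0, with a median of -0.01, and none was past the limits. Of the 34 ribosome biogenesis genes, 14 were below 0, with a median of 0.01, and 1, Pes1, was past the limits in the lower direction. Whether the ribosomal protein genes differ from these lists was not tested.

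The libraries of 1 group differed among themselves. On the scale of log2 CPM, the median deviation of the 80 genes from their means over the 6 libraries was 0.07, -0.05 and 0.06 in control replicates 1, 2 and 3, and -0.04, -0.03 and 0.01 in EFV replicates 1, 2 and 3. For all genes tested it was 0.00 in every library. Control replicate 2 was thus the lowest of the 6, below all EFV libraries, and control replicates 1 and 3 were the highest. Control replicate 2 was the lowest library in 36 of the 80 genes (45.0%), against 17.98% of all genes tested, and control replicate 1 was the highest in 37 (46.25%), against 13.93%. Both subunits showed this order of libraries, with the small subunit at 0.08, -0.07 and 0.03 in control.

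**Figure D3:**
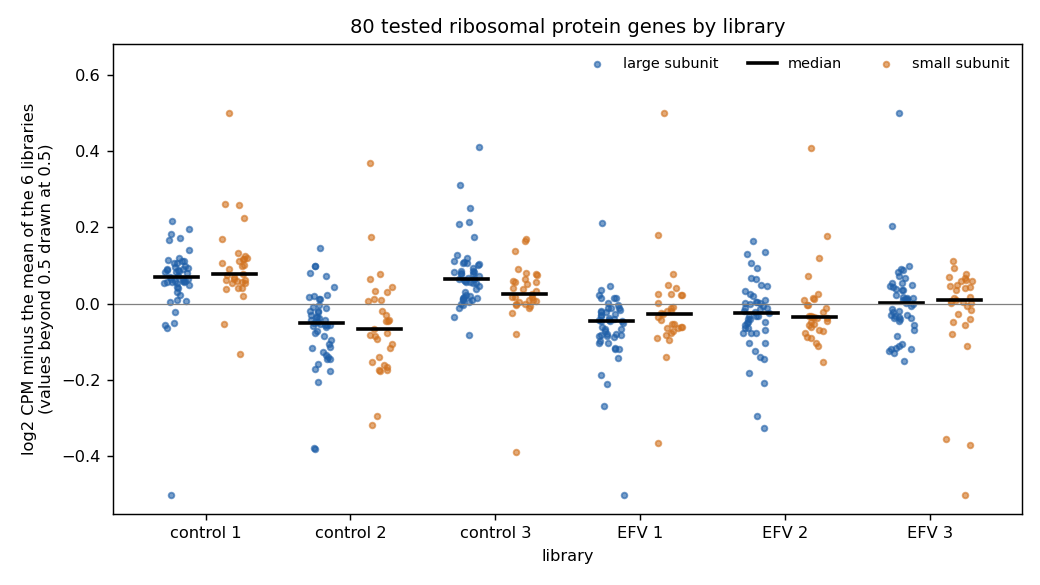
Log2 CPM minus the mean of the 6 libraries (y axis) for the 80 tested ribosomal protein genes, by library (x axis), large subunit in blue and small subunit in orange; black lines are medians. Control replicate 2 sits low and control replicates 1 and 3 sit high, while the 3 EFV libraries lie between them.

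Control replicate 2 was also the lowest in RPE markers, and control replicate 3 the highest in lens markers, by the values given above. Erythroid markers, 6 of 6 listed, summed to 131 to 264 FPKM in control and 114 to 289 in EFV-treated libraries, with Slc4a1 at 0 in 2 of the 6. Between the groups, 9 of the 10 tested RPE markers were above 0, with a median log2 fold change of 0.43 and 2 past the limits in the higher direction. All 7 tested lens markers were past the limits in the lower direction, with a median of -3.61. This difference rests on control replicate 3, since the lens markers summed to 564.9 FPKM there and to 10.4 and 19.87 in control replicates 1 and 2. Of the 5 tested fibroblast markers, 5 were above 0, with a median of 0.14 and 1 past the limits, and of the 5 tested erythroid markers 4 were below 0 and 0 past the limits. The part of these markers in the result was not tested. Without control replicate 2, 19 of the 80 were past the limits in the lower direction (1.34% of all genes), 74 of 80 were below 0 (49.36% of all genes) and the median was -0.09. Without control replicate 1, 5 were past the limits (1.99% of all genes), 47 were below 0 (49.88%) and the median was -0.03. Without control replicate 3, 7 were past the limits (1.72%), 52 were below 0 (49.67%) and the median was -0.03. Without EFV replicates 1, 2 and 3 in turn, 7 (1.33% of all genes), 6 (1.83%) and 16 (1.94%) were past the limits. The median thus stayed below 0 in all 6 fits, by a variable amount.

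**Figure D4:**
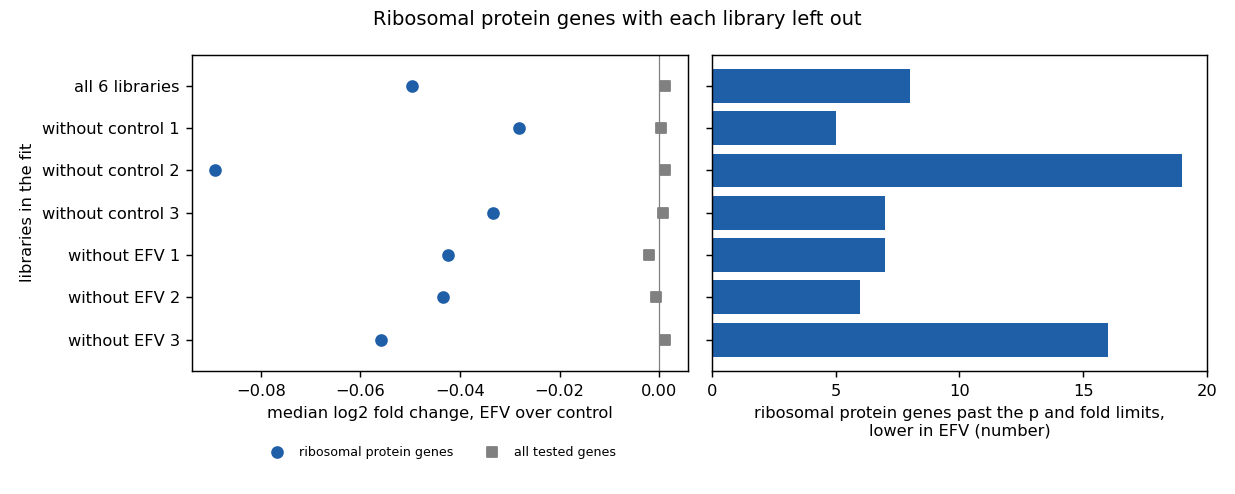
Left, median log2 fold change (x axis) of the ribosomal protein genes (blue circles) and of all tested genes (grey squares) with all 6 libraries and with each left out (y axis); right, the number of ribosomal protein genes past the p and fold limits in the lower direction. The median runs from -0.09 without control replicate 2 to -0.03 without control replicate 1, and the number from 19 to 5.

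The share of all FPKM that went to the 82 genes was 4.85%, 4.42% and 4.76% in control replicates 1, 2 and 3 and 4.56%, 4.57% and 4.69% in EFV replicates 1, 2 and 3. The groups overlapped. The mean was 4.67% ± 0.226 in control and 4.61% ± 0.0743 in EFV-treated mice (SD, n = 3 each), a difference of less than the spread between control libraries. Summed FPKM of the large subunit was 10110 ± 556 and 9821 ± 309, and of the small subunit 6640 ± 435 and 6560 ± 110.0. The ratio of large to small was 1.523 ± 0.0308 in control and 1.497 ± 0.0256 in EFV-treated mice, a difference within the SD of control. Without control replicate 1 the difference in share turned to 0.0198 percentage points higher in EFV-treated mice, from 0.067 lower with all libraries. No test was run on these shares, since the smallest two-sided p of an exact permutation test with 3 libraries in each group is 0.1.

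For several members much of the protein's signal was listed under another row. In the files 78 further rows, 74 of them unnamed rows called BGI_novel, carried only the KEGG entry of a member and a protein match named ribosomal protein, and 42 members had at least 1 such row. For 10 members these rows held 18.02% to 97.3% of the summed counts. Rps6 was the extreme case, with 142 to 221 counts per library on the named row and 6545 to 6961 on the other, so the low FPKM of Rps6 is that of 1 row and not of all reads assigned to the protein.

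Rps2 lies at the entry of the mRNA channel. Its named row had 3538, 2039 and 1632 counts in control and 3126, 2825 and 901 in EFV-treated libraries, a range of 3.93 times. The other rows had 3183, 4056 and 5454 counts and 3274, 3535 and 6106, high where the named row was low. The sum was 6721, 6095 and 7086 counts in control and 6400, 6360 and 7007 in EFV-treated libraries, a range of 1.16 times. Rps2 has 24 other genes that share at least 20% of its 50-base words, more than any other member.

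Rpl34, which has the processed copy Rpl34-ps1, had the largest fold change and the largest within-group spread of the 80 genes. The named row had 276, 300 and 508 counts in control and 207, 436 and 1232 in EFV-treated libraries, with EFV replicate 3 far above the others, and the log2 fold change was 0.76 (SE 0.53). The other rows had 1735, 1412 and 1507 counts in control and 1691, 1467 and 604 in EFV-treated libraries. Summed, the log2 fold change was -0.05 (SE 0.05). For Rps18 the highest library was 1.51 times the lowest on the named row, and the sum ran from 2087 to 2497 counts.

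**Figure D5:**
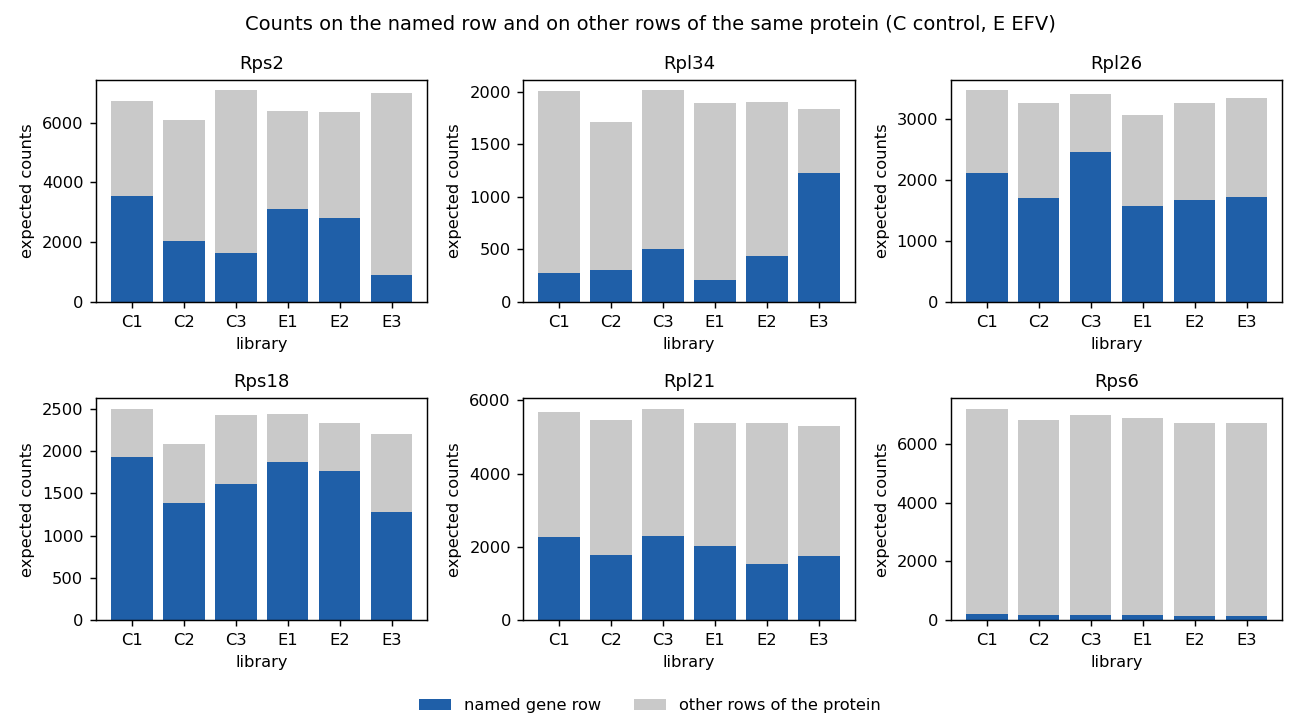
Expected counts (y axis) in the 6 libraries (x axis, C control and E EFV) for 6 ribosomal proteins, stacked from the named gene row (blue) and the other rows of the same protein (grey). The split moves from library to library, as for Rps2 and Rpl34, while the height of the bars stays near level.

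With the rows summed, 1 of the 8 genes, Rpl26, was no longer past the limits. Its other row had 1355, 1550 and 942 counts in control and 1490, 1590 and 1629 in EFV-treated libraries, so it was lowest in control replicate 3, where the named row was highest. The log2 fold change went from -0.37 to -0.09 (SE 0.05). For Rpl21 it went from -0.28 to -0.10 (SE 0.04), which was still past the limits. Over all members, 7 of 80 were past the limits in the lower direction after summing, against 238 of 15498 genes tested. Below 0 were 64 of 80, against 49.44% of all genes, with the median of the members at -0.05. Over the 10 members with 10% or more in other rows, the ratio of the highest to the lowest library had a median of 1.175 for the sum, and the sum had the smaller ratio in 8 of the 10. Which row a read came from cannot be told apart in these files, and this alternative was added after the values had been seen.

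Across the members, the spread between libraries was set against the number of near copies. The within-group SD of log2 CPM had a median of 0.07 for the 17 genes with no other gene that shares 20% of their words, of 0.07 for the 37 with 1 to 3 and of 0.09 for the 26 with 4 or more, and of 0.10 for all genes tested. This is a description, since genes are not independent replicates.

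The annotated start sites of the members gave a feature that the rule did not use. RefSeq promoter windows (250 bases before to 50 after the annotated start, GRCm38) were found for 62 of the 82 genes. A C at the annotated start with at least 5 pyrimidines from it was present in 14 of 62 (22.6%), against 2.85% of the 11382 other tested genes, and within 5 bases of the start in 30 of 62 (48.4%), against 23.7%. The letters CCGGAAG, searched on both strands, were in a window of 38.7% of the 62 genes and of 18.01% of the other tested genes. AAGATGG was found for 16.1% and 7.82% of these genes, and TATAAA for 12.9% and 9.10%. The letters are a description and not sites of binding.

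The windows below hold 15 bases before and 15 from the annotated start, 5′ to 3′ on the strand of the gene, with pyrimidines that run unbroken from the start in capitals. They are given for the 7 of the 8 genes past the limits that have a window, and for Rps6. They show the starts as annotated, which differ among these genes. Start sites were not measured in these libraries. At the annotated start, Rps10, Rpl28 and Rpl35 have a C and a run of 8 or more pyrimidines. Rpl7a has a T and a run of 7 there, Rps28 has a run of 3, and Rpl41 and Rpl26 have a purine.
Rps10, chr17:27635230-27635259, minus strand: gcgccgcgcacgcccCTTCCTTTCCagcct
Rpl28, chr7:4792950-4792979, plus strand: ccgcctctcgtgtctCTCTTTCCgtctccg
Rpl35, chr2:39005117-39005146, minus strand: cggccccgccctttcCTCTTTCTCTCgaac
Rpl41, chr10:128549154-128549183, minus strand: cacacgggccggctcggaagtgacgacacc
Rpl26, chr11:68901551-68901580, plus strand: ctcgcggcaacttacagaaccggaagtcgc
Rpl7a, chr2:26910792-26910821, plus strand: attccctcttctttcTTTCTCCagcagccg
Rps28, chr17:33824548-33824577, minus strand: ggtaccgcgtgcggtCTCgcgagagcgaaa
Rps6, chr4:86857353-86857382, minus strand: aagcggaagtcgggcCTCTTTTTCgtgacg
The members lay on 19 chromosomes, with 14 of the 82 on chromosome 7 and 8 on chromosome 17.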

How the data were processed

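Expected counts, deposited by the authors, are estimates per gene that are not normalized. FPKM values, also deposited, were normalized by the authors for length and library. Per the labels and the study, Bowtie2 2.2.5, RSEM 1.2.12 and HISAT2 2.0.4 were named, with mm10 as the build and poly-A selection. RSEM divides reads that match several genes by expectation maximization. Expected counts were rounded, and genes that reached 10 counts in 3 libraries or more were tested with edgeR 4.0.16 (TMM scaling, group as the only term, R 4.3.3); adjusted p-values cover all tested genes. DESeq2 1.42.0, limma 3.58.1, other scalings, filters, a Poisson model, a length trend, a replicate block and left-out libraries were alternatives. Rows called BGI_novel, 7.73% of counts, were kept as listed. Near copies were counted from 50-base words of the reference transcripts (GENCODE M21), and promoter windows came from RefSeq. Members, lists and tests were chosen with earlier results of these data known. Named genes were those highest or lowest in FPKM, with the smallest p, in the study's list, in fixed lists, or with the widest spread. CPM is counts per 1000000 counts after TMM scaling. Replicates are separate pools, and no pair of libraries held the same values. A gene of the fixed lists is not reported here.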

Additional observations from a re-analysis of the deposited data

How the results depend on the processing

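The count of ribosomal protein genes called at an adjusted p of 0.05 was 0 under every alternative except the Poisson model. There it was 37, against 2043 of all 15537 genes. With that model 19 genes were past the unadjusted limits in the lower direction, against 1172 of all genes. In the higher direction it was 1, against 1133 of all genes. The number of genes whose groups did not overlap, 13 of 80 with the main settings, was 7 with total counts only (7.93% of all genes) and 7 with limma on log2(FPKM + 0.1) or log2(FPKM + 1) (7.67% of all genes), shares near those of all genes, and 1 with the length trend removed (7.9% of all genes). With each library left out, the number past the limits ran from 5 to 19 in the lower direction and from 0 to 1 in the higher, the number without overlap from 15 (without control replicate 1, 18.3% of all genes) to 41 (without control replicate 2, 15.9% of all genes), the number below 0 from 47 to 74, the median log2 fold change from -0.0892 to -0.0282 and the median of the large minus that of the small subunit from -0.0525 to -0.0137. With 5 libraries the groups of more genes are free of overlap, so 15 of 80 is near the share of all genes. The lowest median fold change and the highest counts in the lower direction, without overlap and below 0 came without control replicate 2. The cause of these shifts was not tested. Same-numbered libraries correlated in their deviations from the group means at 0.125, 0.083 and 0.099, and each correlated best with its own number, a hint from the data and not from the design. With the replicate number as a block, 11 genes instead of 8 were past the limits in the lower direction. Over all 15537 genes tested, 270 instead of 239 were past them in that direction. In the block fit the log2 fold change of Rack1 was 0.0012.

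Named genes near 0 changed direction under some settings. Rack1 was at 0.0025 with upper quartile scaling, 0.0 with filterByExpr and 0.001 with Entrez genes only. With total counts only, Rack1 was at 0.0151, Rpl3 at 0.0102, Rps4x at 0.0065 and Rpsa at 0.0056. With limma on log2(FPKM + 0.1), Rack1 was at 0.019, Rpl10 at 0.0058, Rpl3 at 0.0128, Rps4x at 0.0103 and Rpsa at 0.0081, and with log2(FPKM + 1) at 0.0188, 0.0058, 0.0127, 0.0102 and 0.0081. With the length trend removed, Rack1 was at 0.015, Rpl10 at 0.011, Rpl3 at 0.0075, Rps18 at 0.02 and Rps4x at 0.0114. With rows of the same protein summed, an alternative chosen after seeing the data, Rpl30 was at -0.035 and Rpl34 at -0.0516, and with the wider rule at -0.0353 and -0.0541. With each library left out, the log2 fold change ran from -0.0452 to 0.0308 for Rack1, -0.0849 to 0.0358 for Rpl10, -0.0224 to 0.251 for Rpl22l1, -0.0078 to 0.0751 for Rpl24, -0.0357 to 0.0181 for Rpl3, -0.0329 to 0.1282 for Rpl30, -0.1904 to 1.1833 for Rpl34, -0.002 to 0.0167 for Rpl7l1, -0.1256 to 0.1223 for Rps18, -0.3782 to 0.2863 for Rps2, -0.0351 to 0.1055 for Rps23, -0.0257 to 0.0873 for Rps27, -0.0255 to 0.0915 for Rps27a, -0.0973 to 0.1215 for Rps29, -0.0516 to 0.0197 for Rps4x and -0.0435 to 0.0182 for Rpsa. The p-values rest on the models, since 3 libraries a group allow no exact test under 0.1.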
